A study of Mus musculus with 8 samples.

Results

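The 9 genes described here, *Mybl1*, *Tcfl5*, *Taf4b*, *Zfp541*, *Kctd19*, *Sox30*, *Sox5*, *Crem* and *Fhl5*, encode transcription regulators of meiotic and postmeiotic male germ cells. They were taken by name from the 55357 genes of the deposited table, and 8 of them passed the expression filter that left 20187 genes for testing. RNA-seq was performed on testicular germ cells of C57BL/6 males aged 15 days. Of the 8 males, 4 had the control genotype *Mgat2*[F/F], and 4 cKO males also carried the transgene (*Mgat2*[F/F]:*Stra8*-iCre). *Mgat2* encodes a Golgi enzyme that adds the second antenna of complex N-glycans, both genotypes carry floxed *Mgat2* alleles, and the iCre transgene is driven by the *Stra8* promoter, which is active from spermatogonia onward. The controls carried no Cre transgene, so an effect of Cre itself and an effect of *Mgat2* loss cannot be told apart.

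Spermatogonia enter meiosis, pass through a long pachytene stage as spermatocytes and emerge as haploid round spermatids. MYBL1 (A-MYB) is the DNA-binding activator of the pachytene programme, including the precursors of pachytene piRNAs and the PIWI pathway genes, and TCFL5 is a basic helix-loop-helix factor that acts in the same cells. ZFP541 and KCTD19 form a complex with the histone deacetylases HDAC1 and HDAC2 that is needed for spermatocytes to complete pachytene. SOX30 is needed in round spermatids, CREM activates postmeiotic genes through cAMP response elements, and FHL5 (ACT) is its coactivator.

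The comparison asks how far transcripts of these regulators differed between genotypes at an age when tubules hold spermatogonia and spermatocytes. Expected counts per library totalled 12584726 to 15907505 in controls and 14069373 to 15572196 in cKO. *Mgat2* itself was measured at 31.8 to 69.8 CPM (counts scaled to library size with TMM factors) in controls and at 16.0 to 37.6 CPM in cKO, and 2 of the 4 cKO libraries lay below the lowest control (log2 fold change -1.05, adjusted p = 0.47 in edgeR's quasi-likelihood test). Replicate 1 of both genotypes stood apart from the other libraries. The deviations of control replicate 1 and cKO replicate 1 from their group means correlated at r = 0.645 over 20187 genes, which are not independent replicates. Each correlated at -0.452 to -0.147 with replicates 2 to 4 of the other genotype. Negative values there follow in part from the arithmetic, because deviations from a group mean sum to 0 for each gene. Because replicate 1 stood apart, results are also given for replicates 2 to 4 alone, a choice made after seeing the data. In these bulk samples, fewer cells of a type and less RNA per cell cannot be told apart.

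None of the 8 tested regulators passed an adjusted p of 0.05 in edgeR, where 0.0396% of all tested genes did, all of them lower in cKO. At an unadjusted p under 0.05 there were 3 regulators lower in cKO (*Kctd19*, *Sox30* and *Crem*) and 1 higher (*Taf4b*), while 6.28% of all tested genes were lower and 2.62% were higher by that measure. DESeq2, the tool of the study's own comparison at the same threshold, was run here as an alternative. It called 1 regulator, *Kctd19*, and 1.5% of all tested genes. limma-voom called 0 regulators and 0 genes in all. Of the 8 regulators, 7 had a log2 fold change under 0, as did 48.6% of all tested genes. Their median log2 fold change was -0.29, and that of all tested genes was 0.01. *Kctd19* was lower in every cKO library than in every control, which held for 3.03% of tested genes, and *Taf4b* was higher in every cKO library, which held for 2.47%.

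**Figure D1:**
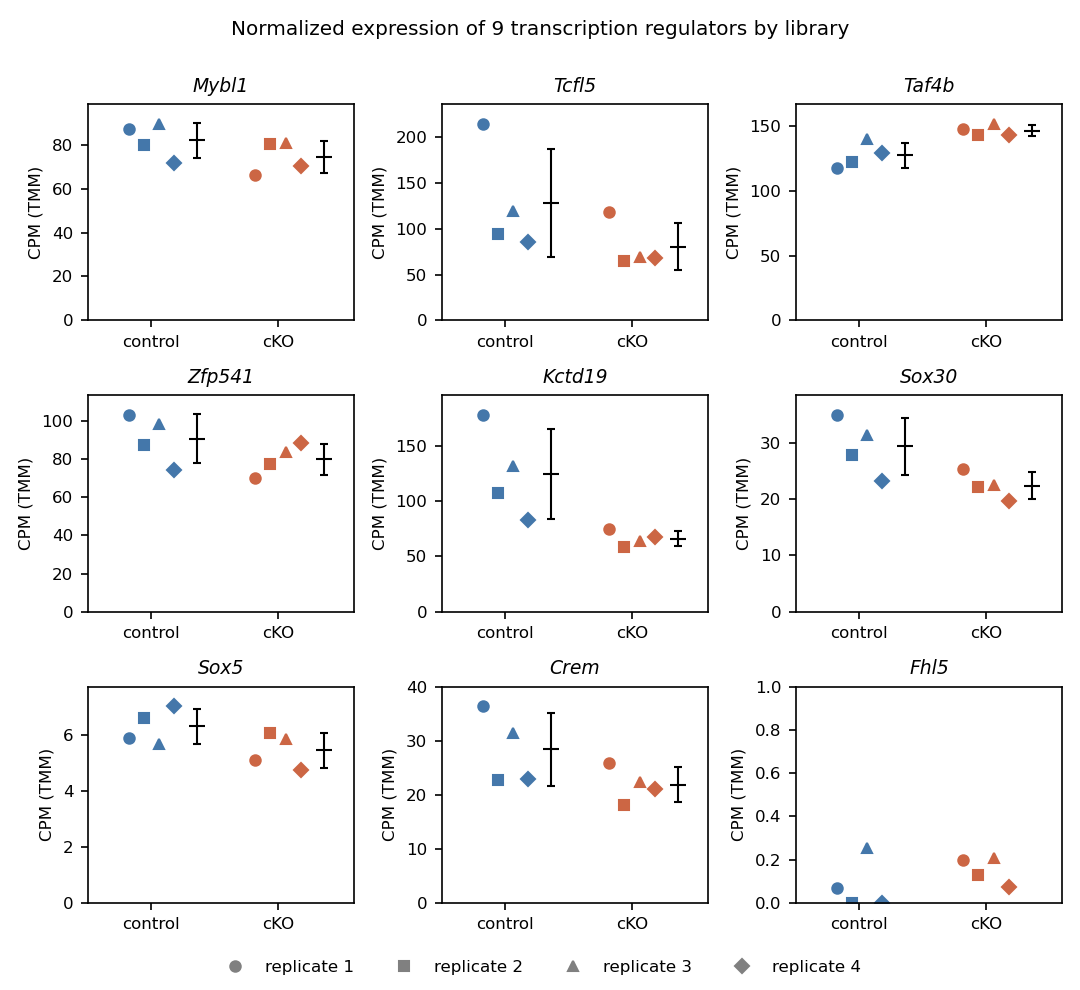
Normalized expression of the 9 regulators, with each library as a point (shape gives the replicate number), the vertical axis in TMM-scaled CPM from 0, and the mean and SD of the 4 libraries of a genotype in black (not drawn for *Fhl5*). *Kctd19* points of cKO all lie below the controls, and *Taf4b* points of cKO all lie above them. Circles (replicate 1) are the highest of each genotype for *Tcfl5*, *Kctd19*, *Sox30* and *Crem*.

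**Figure D2:**
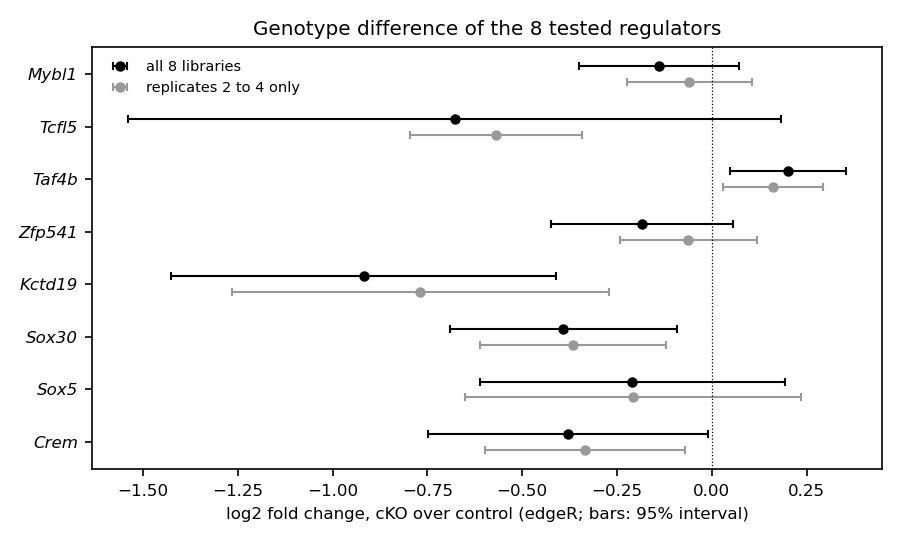
Log2 fold change of cKO over control for the 8 tested regulators, with 95% intervals from edgeR, for all 8 libraries (black) and for replicates 2 to 4 only (grey). The interval of *Tcfl5* reaches from -1.54 to 0.18 with all libraries and from -0.80 to -0.34 without replicate 1.

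The promoters of *Tcfl5* and *Zfp541* are shown because their windows hold no annotated exon and their estimated log2 fold changes differed in size. The estimates were -0.68 for *Tcfl5* and -0.18 for *Zfp541*, and neither passed the test (edgeR, adjusted p = 0.63 and 0.65). The sequences are the 250 bases upstream of the annotated start, from the GRCm39 genome with GENCODE release M39 starts, and capitals mark the MYB core letters AACNG on either strand. The *Tcfl5* window is chr2:180284557-180284806 on the minus strand, and the *Zfp541* window is chr7:15795486-15795735 on the plus strand.
*Tcfl5*: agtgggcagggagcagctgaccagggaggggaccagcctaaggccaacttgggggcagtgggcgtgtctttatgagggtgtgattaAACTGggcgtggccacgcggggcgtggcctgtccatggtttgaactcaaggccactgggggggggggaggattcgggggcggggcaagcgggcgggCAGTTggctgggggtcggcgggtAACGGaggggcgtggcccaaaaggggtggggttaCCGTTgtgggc
*Zfp541*: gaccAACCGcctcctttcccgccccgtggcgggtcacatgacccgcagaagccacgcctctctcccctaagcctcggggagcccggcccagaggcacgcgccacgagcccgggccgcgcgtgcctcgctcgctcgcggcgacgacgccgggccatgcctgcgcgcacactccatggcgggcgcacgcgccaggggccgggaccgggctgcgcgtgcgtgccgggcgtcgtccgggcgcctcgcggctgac
The *Tcfl5* window held 4 matches, which began 164, 68, 45 and 11 bases upstream of the start, whereas the *Zfp541* window held 1, at 246 bases. At least 1 match was found in 74.0% of 21757 protein-coding promoters of the same length, and 4 or more in 6.33%. Among the other regulators, *Fhl5* had 3 matches, *Mybl1* and *Crem* had 1 each, and *Sox30*, *Sox5*, *Taf4b* and *Kctd19* had 0. Some of these windows are transcribed sequence, because they lie upstream of 1 canonical start of each gene. All 250 bases of the *Sox5* window and 194 bases of the *Mybl1* window are exons of other transcripts of the same gene, and 208 bases of the *Sox30* window and 140 of the *Kctd19* window are exons of neighbouring genes. The full cAMP response element TGACGTCA, the element that CREM binds, was found in *Taf4b* only, 63 bases upstream of its start, and in 1.7% of all promoters. The core TGACG, which overlaps it, was in *Mybl1*, *Crem* and *Taf4b* and in 18.0% of promoters. The E-box CACGTG was in *Taf4b* and in 6.26% of promoters, the SOX letters AACAAT were in *Fhl5* and in 9.66%, and the RFX letters GTTGCNATG were in 0 of the 9 windows and in 0.896%. These are matches of letters on both strands, not measured binding. Their relation to the fold changes was not tested.

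*Mybl1* (ENSMUSG00000025912; chr1:9737632-9770628, minus strand, GRCm39) was expressed at similar levels in both genotypes. Its values were 87.0, 79.7, 89.4 and 71.5 CPM for control replicates 1 to 4 and 66.3, 80.2, 81.0 and 70.1 CPM for cKO replicates 1 to 4, so that the groups overlapped. The means were 81.9 ± 8.07 CPM in controls and 74.4 ± 7.36 CPM in cKO (SD, n = 4 each), a log2 fold change of -0.14 with a 95% interval of -0.35 to 0.07 (edgeR, adjusted p = 0.69). On the TPM scale with limma-trend the fold change was -0.24 with a pseudocount of 1, and it was -0.06 in edgeR without replicate 1. Counts and TPM of *Mybl1* diverged between libraries. The effective transcript length that they imply ran from 0.79 to 1.19 of its own mean, and its spread was larger than that of 88.2% of 10356 genes with at least 100 counts in every library. RSEM derives that length from the mix of the transcripts it assigns, of which 8 are annotated for *Mybl1*.

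*Tcfl5* (ENSMUSG00000038932; chr2:180263529-180284556, minus strand) was measured at 214, 94.7, 119 and 85.2 CPM for control replicates 1 to 4 and at 119, 64.6, 69.2 and 68.4 CPM for cKO replicates 1 to 4. Replicate 1 was the highest library of each genotype, and cKO replicate 1 lay within the range of the controls, while the other 3 cKO libraries lay below every control. The log2 fold change was -0.68 ± 0.36 (SE; 95% interval -1.54 to 0.18), and it did not pass the test (edgeR, adjusted p = 0.63). Without replicate 1 of both genotypes it was -0.57 ± 0.11, and *Tcfl5* was then the 1 regulator called (edgeR, adjusted p = 0.0048), among 4.24% of all tested genes. Without control replicate 1 alone the fold change was -0.31, and without cKO replicate 1 alone it was -0.93. Transcripts of *Tcfl5* share 535 exonic bases, 6.49% of its exon sequence, with *Col9a3* on the opposite strand, and reads of the pair cannot be told apart there because the libraries carried no strand information.

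Summed TPM of 12 pachytene genes, a list of genes such as *Hspa2*, *Ldhc* and *Pgk2* that are switched on in pachytene spermatocytes, moved with *Tcfl5* across libraries. The sum was 2639 TPM in control replicate 1 and 815 to 1312 TPM in the other controls, and it was 1039 TPM in cKO replicate 1 and 458 to 514 TPM in the other cKO libraries. Replicate 1 was the highest library of its genotype in both measures. This was not particular to *Tcfl5*, since by CPM replicate 1 was also the highest of each genotype for *Kctd19*, *Sox30* and *Crem*. By TPM it did not hold for *Crem*, which was highest in control replicate 3 (43.9 TPM) and cKO replicate 4 (32.7 TPM). Summed TPM of 12 early prophase genes was instead lowest in replicate 1 of both genotypes. It was 1169 in control replicate 1 and 1350 to 1781 in the other controls. In cKO it was 1144 in replicate 1 and 1307 to 1425 in the other libraries. Markers of Sertoli and myoid cells were also lowest in replicate 1 of both genotypes. Summed TPM of 10 Sertoli genes was 5424 in control replicate 1 and 6025 to 6719 in the other controls, and 5650 in cKO replicate 1 and 6532 to 6721 in the other cKO libraries. Most of the Sertoli sum came from *Clu* (mean 4162 TPM in controls and 4348 TPM in cKO). The sums of 4 myoid genes were 324 against 435 to 443 TPM in controls and 298 against 439 to 578 TPM in cKO. The sum of 7 macrophage, endothelial and blood genes was also lowest in replicate 1 of both genotypes (46.1 and 71.0 TPM). Leydig cell markers differed from this. The sum of 6 such genes was lowest in control replicate 1 (35.9 TPM) but highest in cKO replicate 1 (73.8 TPM). The part of stage and cell composition in the genotype difference was not tested.

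*Taf4b* (ENSMUSG00000054321, chromosome 18), a germ cell subunit of the general factor TFIID, was the 1 tested regulator with a higher mean in cKO. Its values were 118, 122, 140 and 129 CPM for control replicates 1 to 4 and 148, 143, 152 and 143 CPM for cKO replicates 1 to 4. The lowest cKO library was above the highest control, and the difference was small, with means of 127.4 ± 9.59 and 146.5 ± 4.05 CPM (SD, n = 4 each). The log2 fold change was 0.20 ± 0.07 (SE; 95% interval 0.05 to 0.35), and it did not pass the adjustment (edgeR, adjusted p = 0.44). Without replicate 1 it was 0.16, with the groups still apart.

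*Zfp541* (ENSMUSG00000078796; chr7:15795736-15830259, plus strand) and *Kctd19* (ENSMUSG00000051648; chr8:106109439-106140158, minus strand), whose products work in one complex, differed in size of change. *Zfp541* was at 103, 87.4, 98.6 and 74.3 CPM for control replicates 1 to 4 and at 70.1, 77.6, 83.7 and 88.7 CPM for cKO replicates 1 to 4. The groups overlapped, and the log2 fold change was -0.18 ± 0.11 (SE; edgeR, adjusted p = 0.65), or -0.06 without replicate 1.

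*Kctd19* was at 178, 107, 131 and 82.7 CPM for control replicates 1 to 4 and at 74.8, 58.0, 64.0 and 67.0 CPM for cKO replicates 1 to 4. Every cKO library lay below every control, and the controls spread far more widely than the cKO libraries, with means of 124.6 ± 40.5 and 66.0 ± 7.0 CPM (SD, n = 4 each). This was the largest difference among the tested regulators. The log2 fold change was -0.92 ± 0.22 (SE; 95% interval -1.43 to -0.41; edgeR, adjusted p = 0.33). DESeq2 gave -0.93 with an adjusted p of 0.0016. Leaving out 1 library at a time gave edgeR adjusted p of 0.0505 to 0.82. The smallest was without control replicate 4, the lowest control, and the largest without cKO replicate 3. Without replicate 1 of both genotypes the fold change was -0.77 (edgeR, adjusted p = 0.15).

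Within a library, the ratio of 2 genes does not depend on the scaling between libraries. The ratio of *Kctd19* to *Zfp541* counts was 1.72, 1.22, 1.33 and 1.11 for control replicates 1 to 4, and 1.07, 0.747, 0.765 and 0.756 for cKO replicates 1 to 4. All 4 cKO ratios lay below all 4 control ratios, with a difference of -0.69 on the log2 scale, both with and without replicate 1. Of 14360 genes with at least 10 counts in every library, 1.07% had ratios to *Zfp541* separated in this way. The ratio of *Tcfl5* to *Mybl1* overlapped between genotypes. It was 2.46, 1.19, 1.34 and 1.19 in controls and 1.79, 0.806, 0.854 and 0.977 in cKO, again with replicate 1 the highest of each genotype. These ratios were chosen after the values had been seen, and they are given without a test.

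**Figure D3:**
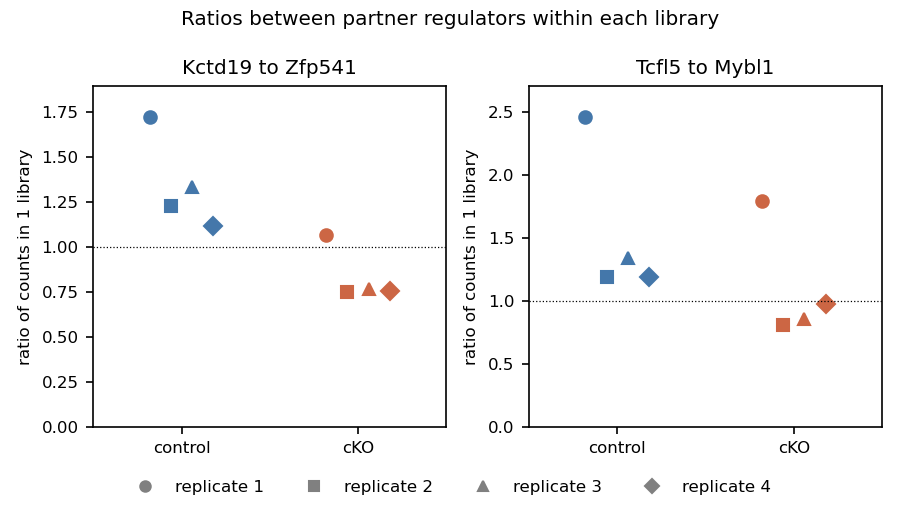
Ratio of counts within each library for *Kctd19* to *Zfp541* (left) and *Tcfl5* to *Mybl1* (right), with the replicate number as the point shape, the axis from 0 and a dotted line at 1. Control ratios of *Kctd19* to *Zfp541* run from 1.11 to 1.72 and cKO ratios from 0.747 to 1.07, while the *Tcfl5* to *Mybl1* ratios of the genotypes overlap through cKO replicate 1.

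Transcripts of 7 genes for partners of this complex and of the other regulators were all tested. Of these, 0 were called in edgeR or DESeq2, 1 had an unadjusted p under 0.05, 3 were lower and 4 higher, and the median log2 fold change was 0.02. The TATA-binding protein gene *Tbp* had the smallest p (log2 fold change -0.28, unadjusted p = 0.020, edgeR adjusted p = 0.47), followed by *Hdac2* at 0.08 and *Dnttip1*, a scaffold of the deacetylase complex, at -0.10.

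*Sox30* (ENSMUSG00000040489; chr11:45871054-45908824, plus strand), with 1 annotated transcript, was at 34.9, 27.8, 31.4 and 23.2 CPM for control replicates 1 to 4 and at 25.4, 22.1, 22.4 and 19.6 CPM for cKO replicates 1 to 4. The genotypes overlapped only through cKO replicate 1, which exceeded control replicate 4. The log2 fold change was -0.39 ± 0.14 (SE; 95% interval -0.69 to -0.09; unadjusted p = 0.015, edgeR adjusted p = 0.44), and it was -0.37 without replicate 1 (edgeR, adjusted p = 0.086).

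*Sox5* (ENSMUSG00000041540; chr6:143774151-144727703, minus strand), a SoxD factor whose short form is made in the testis, was low in all libraries. It was at 5.91, 6.61, 5.69 and 7.03 CPM for control replicates 1 to 4 and at 5.11, 6.08, 5.86 and 4.75 CPM for cKO replicates 1 to 4. The groups overlapped, with a log2 fold change of -0.21 ± 0.18 (SE; edgeR, adjusted p = 0.76), and -0.10 on log2(TPM + 1). The implied effective length of *Sox5* ran from 0.66 to 1.42 of its mean, a spread larger than that of 98.3% of the 10356 genes. Those genes had at least 100 counts in every library, a limit that *Sox5* did not meet, with 87 to 102 counts in controls and 67 to 94 in cKO. The 2 shortest and the 2 longest values were all in cKO libraries. Of its annotated exon bases, 1385 are shared with *Sox5os1* on the opposite strand, and 30 transcripts are annotated, so that TPM and counts of *Sox5* are uncertain in this non-stranded data.

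**Figure D4:**
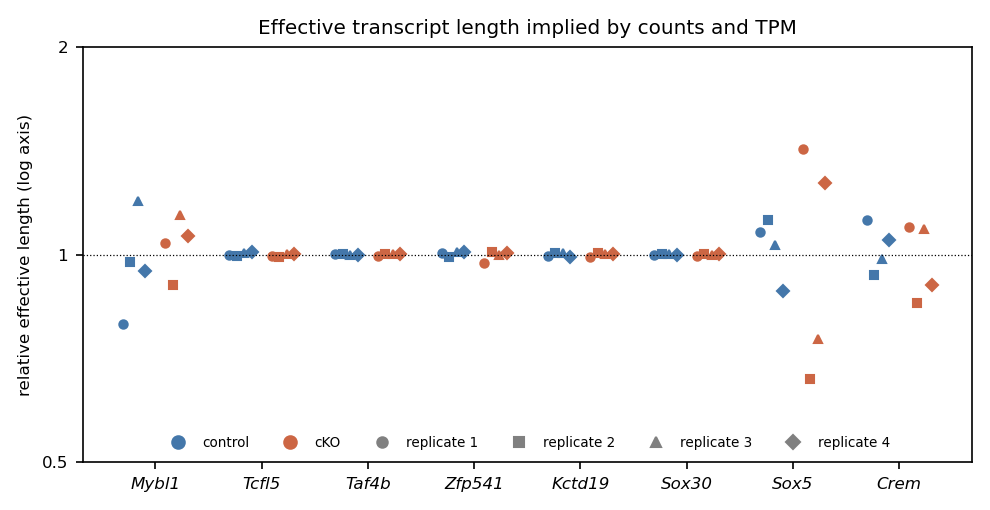
Effective transcript length implied by the ratio of expected count to TPM, relative to the gene's mean over 8 libraries, on a log axis, with colour for genotype and shape for replicate number. *Sox5*, *Mybl1* and *Crem* vary between libraries, up to 0.66 to 1.42 for *Sox5*, while the other 5 regulators stay between 0.97 and 1.01.

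*Crem* (ENSMUSG00000063889, chromosome 18) was at 36.5, 22.8, 31.6 and 23.0 CPM for control replicates 1 to 4 and at 26.0, 18.1, 22.3 and 21.1 CPM for cKO replicates 1 to 4. Only cKO replicate 1 lay above the lowest control, and the log2 fold change was -0.38 ± 0.17 (SE; 95% interval -0.75 to -0.01; unadjusted p = 0.046, edgeR adjusted p = 0.55). Without control replicate 1 it was -0.23. *Crem* has 46 annotated transcripts, which include activators and repressors from one gene, and the deposited gene totals cannot separate them. Transcripts of its coactivator *Fhl5* (ENSMUSG00000028259; chr4:25193390-25242876, minus strand) were at the limit of detection. Control libraries 1 to 4 had 1, 0, 4 and 0 counts of *Fhl5*, cKO libraries 1 to 4 had 3, 2, 3 and 1 counts all at or around the floor of 3 counts, so that it was not tested and no difference could be seen at this depth.

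Without replicate 1, the genotypes did not overlap by CPM for 5 regulators. *Tcfl5*, *Sox30*, *Crem* and *Kctd19* were then below every control, where 10.6% of all tested genes were, and *Taf4b* was above, as 8.17% of genes were. By TPM *Crem* still overlapped, with cKO replicate 4 (32.7 TPM) above control replicate 4 (31.0 TPM). Per transcript length, the order of the levels by mean TPM over the 8 libraries was *Tcfl5* (86.2), *Kctd19* (55.0), *Taf4b* (43.8), *Mybl1* (35.3), *Crem* (34.3), *Zfp541* (31.9), *Sox30* (14.8), *Sox5* (3.49) and *Fhl5* (0.22). This order pools the genotypes, and *Kctd19* and *Taf4b* changed places between them. In controls *Kctd19* was at 49.9 to 101 TPM, above all *Taf4b* values (36.7 to 44.5 TPM), and in cKO it was at 33.3 to 42.2 TPM, below all *Taf4b* values (45.8 to 47.9 TPM). Over all 8 libraries *Tcfl5* and *Kctd19* were closer than the SD of *Tcfl5* (39.3 TPM), and *Mybl1*, *Crem* and *Zfp541* lay within the SD of *Mybl1* (6.43 TPM). *Sox30* (SD 2.83 TPM), *Sox5* (SD 1.17 TPM) and *Fhl5* (SD 0.19 TPM) were apart from their neighbours by more than these SDs.

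The members whose profiles were closest were judged by the SD over the 8 libraries of the difference of log2(CPM + 0.5), where 0 means a constant ratio. *Mybl1* and *Zfp541* were the closest pair (SD 0.12), *Sox30* and *Crem* the next (SD 0.15), and *Taf4b* and *Kctd19* the farthest (SD 0.67). Among 11726 other genes with a mean TPM of at least 5 the nearest profile to *Mybl1* was that of *Blm*, a DNA helicase (SD 0.052). The nearest to *Tcfl5* was *Gmcl1* (SD 0.052), to *Taf4b* was *Dek* (SD 0.042), and to *Zfp541* was *Dmap1* (SD 0.037). *Sox30* was closest to the germ cell RNA helicase *Ddx4* (SD 0.065), *Crem* to the ER oxidase *Ero1b* (SD 0.044), *Kctd19* to *Enkd1* (SD 0.091) and *Sox5* to *Tmie* (SD 0.077). With log2(CPM + 2), 21 of the 24 nearest genes, 3 for each regulator, were kept, and the nearest gene changed for *Kctd19* alone, to *Trafd1* (SD 0.093).

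Other regulators of meiotic and postmeiotic transcription, a list of 20 genes, were 9 lower and 10 higher among the 19 tested, with a median log2 fold change of 0.05 and 0 called in edgeR. Unadjusted p was under 0.05 for 5 lower and 2 higher genes, and beside the 3 described next these were, named after their values were seen, *Hsf5* (log2 fold change -1.08), *Rfx2* (-0.81), *Taf7l* (0.24) and *Scml2* (0.21). The DMRT factor *Dmrtc2*, required in pachytene, had the smallest p, at 45.9 ± 3.84 CPM in controls and 33.6 ± 1.5 in cKO (log2 fold change -0.45, edgeR adjusted p = 0.20). *Rfx4*, an RFX factor, was at 15.6 ± 8.32 and 3.84 ± 2.43 CPM (log2 fold change -2.02, edgeR adjusted p = 0.35). *Brdt*, the testis bromodomain protein that reads acetylated histones, was at 139 ± 32.6 and 95.7 ± 7.0 CPM (log2 fold change -0.54, edgeR adjusted p = 0.35). In all 3 genes, named for their small p, every cKO library lay below every control, as in 3.03% of all tested genes. DESeq2 called all 3 (adjusted p = 0.0020, 0.0014 and 0.039), and 1.5% of all tested genes. For *Taf7l* every cKO library lay above every control, as in 2.47% of tested genes. The family relatives of the 9 regulators, such as *Mybl2*, *Sox6*, *Creb1* and *Taf4*, were 4 lower and 9 higher among 13 tested of 14 (median 0.07, 0 called in edgeR or DESeq2, 1 at an unadjusted p under 0.05). The smallest p belonged to *Atf1*, a CREB family activator, at a log2 fold change of -0.19 (edgeR adjusted p = 0.50), followed by *Sox6* at -0.26 and *Tcf12* at 0.16. Regulators of spermatogonia and meiotic entry were 1 lower and 11 higher of 12 (median 0.14, 0 called in edgeR, 1 lower and 1 higher at an unadjusted p under 0.05). The 1 lower gene was *Id4*, an inhibitor of basic helix-loop-helix factors that marks spermatogonial stem cells, at a log2 fold change of -0.48 (edgeR adjusted p = 0.31). DESeq2 called it (adjusted p = 0.039).

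**Figure D5:**
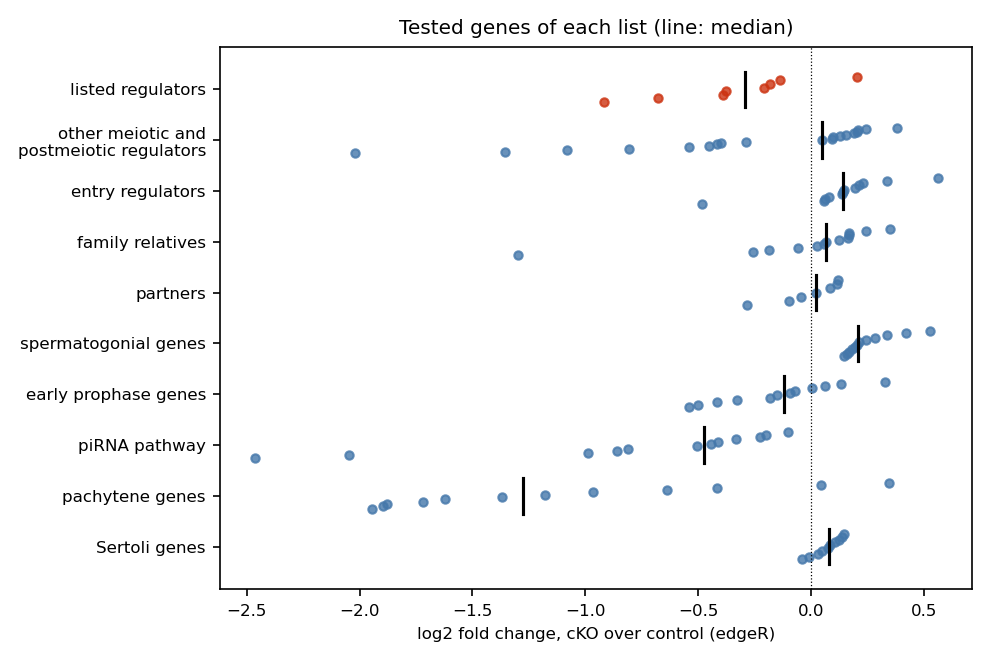
Log2 fold change of cKO over control for the tested genes of each list, 1 point per gene in order of value, with the list's median as a black line and the 8 tested regulators in red. The median is -0.29 for the regulators, 0.05 for other meiotic and postmeiotic regulators, -0.47 for the piRNA pathway, -1.27 for pachytene genes and 0.21 for spermatogonial genes.

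Genes of the stages in which these regulators act were counted from further lists. All 12 genes of the piRNA pathway were lower in cKO (median log2 fold change -0.47), 6 of them at an unadjusted p under 0.05, and 0 were called in edgeR and 3 in DESeq2. The piRNA helicase *Tdrd9* came closest, at 200 ± 18.5 CPM in controls and 141 ± 5.96 CPM in cKO (log2 fold change -0.50, edgeR adjusted p = 0.053, DESeq2 adjusted p = 6.8e-06). Of 12 pachytene genes, 10 were lower and 2 higher (median -1.27, 0 called in edgeR and 2 in DESeq2, 4 lower and 1 higher at an unadjusted p under 0.05), and *Tesmin*, which encodes a metallothionein-like protein of spermatocytes, had the smallest p (log2 fold change -0.64, edgeR adjusted p = 0.45). Of 12 early prophase genes, such as those of the synaptonemal complex, 8 were lower and 4 higher (median -0.12, 0 called in either tool, 3 lower at an unadjusted p under 0.05), and of 12 spermatogonial genes all were higher (median 0.21, 0 called in either tool, 2 at an unadjusted p under 0.05). The spermatogonial genes *Zbtb16*, *Stra8*, *Dmrt1* and *Sohlh1* are also in the list of regulators of spermatogonia and meiotic entry. Of 14 spermatid genes, 5 could be tested and 4 of these were lower. The protamine gene *Prm1* and *Tnp2* were at 0 in every library, which allows up to 0.19 to 0.234 CPM by the floor of 3 counts, and 6 of the 14 had at most 3 counts in any library.

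The labelled cell type was checked against its markers. Summed TPM of 5 germ cell genes (*Ddx4*, *Dazl*, *Tex101*, *Mael* and *Tdrd1*) was 1606 to 1961 in controls and 1492 to 1634 in cKO, and 4 of the 5 were lower in cKO. Of these genes, *Ddx4*, *Mael* and *Tdrd1* are also in the piRNA pathway list, so this repeats part of that result. The fraction also held RNA of Sertoli cells. Of 10 Sertoli genes 2 were lower and 8 higher (median log2 fold change 0.08, 0 called in either tool, 0 at an unadjusted p under 0.05), with summed TPM of 5424 to 6719 in controls and 5650 to 6721 in cKO. Summed TPM of 6 Leydig cell genes was 35.9 to 89.7 in controls and 48.6 to 73.8 in cKO, that of 4 myoid genes 324 to 443 and 298 to 578, and that of 7 macrophage, endothelial and blood genes 46.1 to 108 and 71.0 to 133. None of these lists had all its cKO sums outside the range of the controls, and their part in the differences of the regulators was not tested.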

How the data were processed

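RNA-seq of germ cells from 8 males was analysed, 4 of each genotype. According to the labels and the study's methods, the authors prepared non-stranded poly(A) libraries, aligned paired reads to mm39 (GRCm39) with STAR 2.7.9a and quantified genes with RSEM 1.3.3. The authors compared the genotypes with DESeq2 1.38.3. The authors deposited RSEM expected counts, not normalized between libraries, of which 6.4% were not whole numbers. The deposited TPM values are RSEM estimates scaled within each library for length and depth.

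Counts were rounded. Genes reaching 1 TPM in any 1 library were tested in edgeR 4.0.16 (R 4.3.3; TMM, robust quasi-likelihood F-test, Benjamini-Hochberg adjustment over 20187 genes, threshold 0.05). Log2 fold changes are cKO over control. Alternatives used DESeq2 1.42.0 and limma 3.58.1, other scalings and filters, the replicate number as a block, and each library left out. Scripts were tested on simulated data. A gene is detected above 3 counts, a floor for counting error only.

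All 9 members are named, with the nearest profile of each tested one, and from each of the 14 other lists (139 genes) at most the 3 genes with the smallest p. Beyond this rule, further genes are named as examples of a list, or to identify small counts of calls, the latter after their values were seen. The members and the lists were chosen with earlier results of these data known. Some lists share genes, such as *Tbpl1* in the other regulators and the pachytene genes, so their counts are not separate observations. Replicates are separately numbered samples, and p-values measure the spread between them. Positions and promoters came from GENCODE M39.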

Additional observations from a re-analysis of the deposited data

Results flagged for a closer look

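*Tcfl5* in cKO replicate 1 lay far from the other 3 cKO libraries. It was at 118.7 CPM, where the others were at 64.6 to 69.2 CPM, and on the TPM scale at 96.1, where the others were at 54.2 to 57.8 TPM. The gap to the nearest library was 0.92 of the whole range of the group by CPM and 0.91 by TPM, above Dixon's 95% critical value of 0.829 for 4 samples. These 2 were found among 32 groups of values, and chance gives about 1 in 20.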

How the results depend on the processing

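No regulator changed direction under any alternative, and over all alternatives 143 values of the log2 fold changes kept their side of the threshold while 9 passed it. Leaving out each library in turn gave 0 regulators called each time, and a median log2 fold change of -0.36 to -0.24. Settings chosen after seeing the data were replicates 2 to 4 alone and DESeq2 with the replicate block. *Fhl5* was below the filter and was tested only with no TPM filter, where it was not called (edgeR, adjusted p = 0.88).

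The number of regulators called was 0 in edgeR, 1 with DESeq2, 1 without replicate 1 of both genotypes (*Tcfl5*) and 0 with limma-voom, while all tested genes called numbered 8, 302, 855 and 0. Of the other meiotic and postmeiotic regulators 3 were called with DESeq2 and 3 without replicate 1 (*Dmrtc2*, *Gtf2a1l* and *Rfx4*), of entry regulators 1 and 1 (*Id4*), and of family relatives and partners 1 without replicate 1 (*Fhl2*). Stage genes tested numbered 53 in edgeR, 52 with DESeq2 and 60 with no TPM filter. Of these 5 were called with DESeq2 (*Acr*, *Piwil1*, *Tdrd1*, *Tdrd9* and *Tesmin*), 1 with library totals only (*Tdrd9*) and 1 with no TPM filter. There were 0 to 1 called when each library was left out and 9 without replicate 1. The number of regulators whose genotypes did not overlap by CPM was 5 without replicate 1, in place of 2. Genes of these calls are named after their values were seen, and the cause was not tested.

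The labels name no litter or batch behind the replicate numbers, and a pairing was not established. The deviations of same-numbered samples correlated at 0.645, 0.236, 0.0658 and 0.278, so that 3 of 4 pairs were over the limit of 0.1 that every pair had to pass, and differently numbered pairs were as high (control 2 with cKO 4 at 0.264, control 4 with cKO 2 at 0.28). Of the controls 1 of 4, and of the cKO samples 2 of 4, correlated best with the sample of the same number. With the replicate block in edgeR 1464 genes were called in all (7.25% of those tested), 4 regulators (*Tcfl5*, *Sox30*, *Crem* and *Taf4b*), 8 of the other meiotic and postmeiotic regulators, 1 entry regulator, 2 relatives and partners (*Fhl4* and *Tbp*) and 22 stage genes. In that fit the log2 fold change of *Tcfl5* was -0.63 (edgeR, adjusted p = 6.9e-06) and that of *Kctd19* -0.88 (adjusted p = 0.051), and the adjusted p was 0.018 for *Sox30*, 0.034 for *Crem* and 0.032 for *Taf4b*. DESeq2 with the replicate block called 1223 genes (6.06%), and 3 regulators (*Kctd19*, *Sox30* and *Tcfl5*), 9, 1, 2 and 21 genes of the same lists.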
